A study of Bos taurus
Mus musculus with 10 samples.

Results

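The 6 actin genes were followed in co-cultures of bovine embryonic stem cells with feeder fibroblasts of mouse embryos, after removal of the small molecule IWR-1. The bovine members were found by gene symbol (ACTA1, ACTA2, ACTC1, ACTG2, ACTB and ACTG1), 6 of 27590 genes in the bovine table. The mouse members were found by NCBI gene ID (Acta1, Acta2, Actc1, Actg2, Actb and Actg1), 6 of 31349 genes in the mouse table. All 6 bovine genes and 5 of the mouse genes passed the filter on low values (a normalised read count of at least 10 in at least 5 libraries). Mouse Actc1 did not.

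Lines bESC1, bESC2, bESC4, bESC8 and bESC11, each derived from a blastocyst of day 7.5 and of genotype WT, gave 1 well per medium. The IWRR wells received medium without IWR-1. The IWR wells kept the complete medium with 2.5 µM IWR-1, which blocks tankyrase, slows the breakdown of AXIN and thereby lowers beta-catenin dependent Wnt signalling. Both media were based on mTeSR1 and all 10 wells were collected on day 1. The feeders in every well came from E13.5 fetuses of CD-1 mice and had been treated with mitomycin C so that they no longer divided. Each line is 1 derivation with 1 well per medium, so a difference between wells of a line cannot be told apart from a difference between media in that line. In these bulk libraries fewer cells of a type and less RNA per cell cannot be told apart.

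Actin is the protein of thin filaments and of the cortical and stress fibre networks of non-muscle cells. Mammals carry a small family of genes for nearly identical proteins. ACTB and ACTG1 encode the cytoplasmic beta and gamma actins that nearly every cell makes. ACTA2 and ACTG2 encode the smooth muscle alpha and gamma actins, ACTC1 the cardiac and ACTA1 the skeletal alpha actin. ACTA2 is also made by fibroblasts that form strong stress fibres. Free actin monomer holds back the co-activators MRTFA and MRTFB of the transcription factor SRF, and many actin genes are themselves targets of SRF.

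Per library, bovine genes held 48064953 to 64345738 recovered reads and mouse genes 17101894 to 35223039. The mouse share of all recovered reads was 21.2% to 41.4% in IWRR wells and 23.4% to 42.3% in IWR wells, and it was lower in the IWRR well of each of the 5 lines. The sources used here do not say how a read fitting bovine and mouse sequence alike was assigned, and actin genes are alike both within a genome and between species. The values of single actins are therefore uncertain to the extent that reads were split among these copies. Values are deposited normalised reads, not divided by transcript length, so that levels are compared between wells and not between genes.

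Of the bovine genes, 3 of the 4 muscle actins and 0 of the 2 cytoplasmic actins were called; the difference between these classes was not tested. ACTA2, ACTC1 and ACTA1 rose in IWRR wells, by 1.83-fold, 1.70-fold and 1.57-fold, whereas ACTG2, ACTB and ACTG1 were not called. Thus 3 of 6 bovine actins rose and 0 fell, while over all 18506 tested bovine genes 0.951% were called, 0.886% higher and 0.0648% lower. Calls rest on an adjusted p under 0.05 in limma with the line as a block. In limma without the block 0 genes of either species were called (105 bovine and 584 mouse genes at an unadjusted p under 0.05), the actins included. In the mouse table Acta2 and Actg2 rose, by 1.84-fold and 1.61-fold, which is 2 of 5 tested actins. Of all 15871 tested mouse genes 4.19% were called, 2.14% higher and 2.05% lower.

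**Figure D1:**
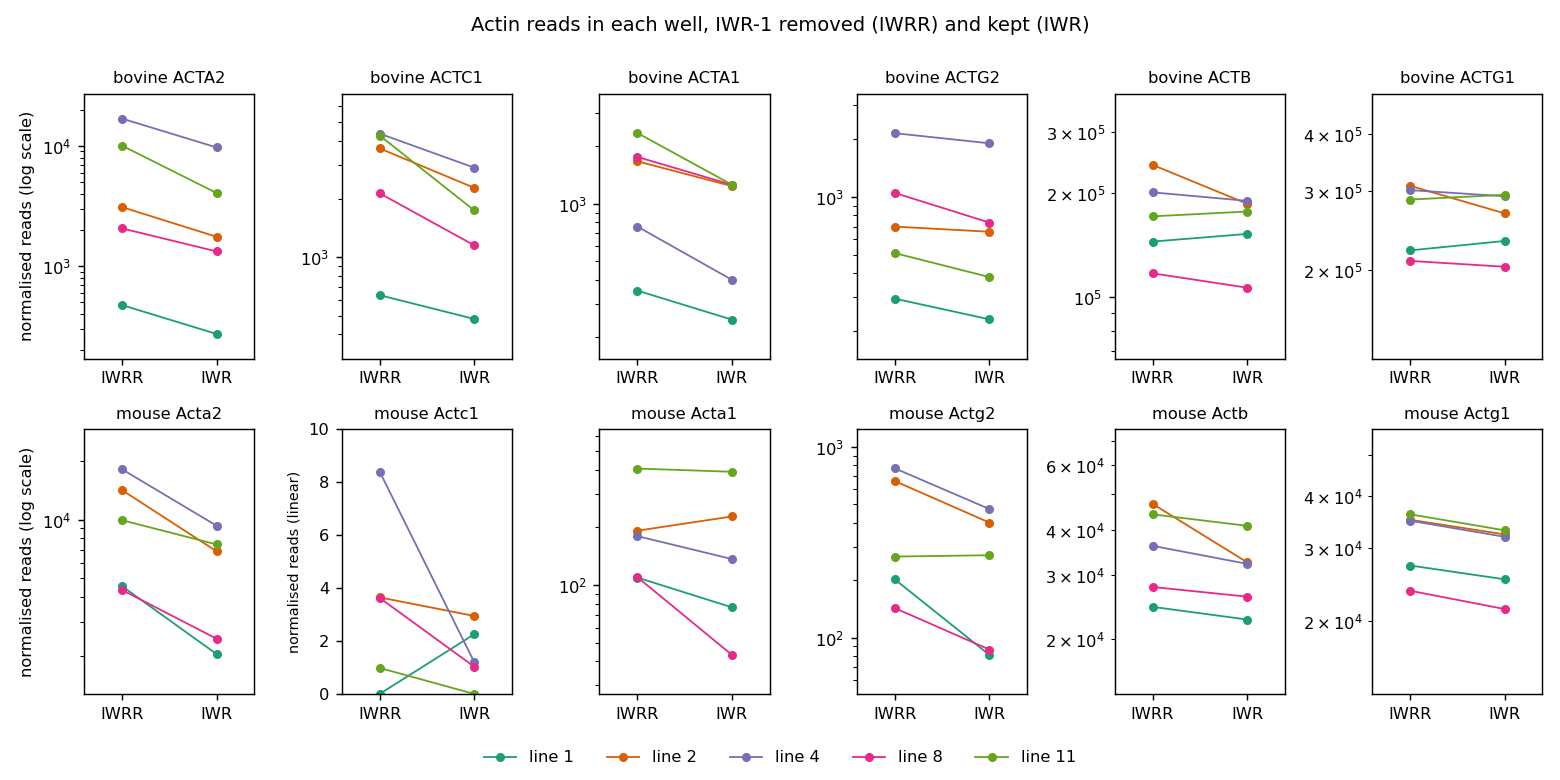
Normalised reads of each actin in each well, on log axes except for mouse Actc1, which has a linear axis. Each line joins the IWRR well (left) and the IWR well (right) of 1 stem cell line. The slopes of bovine ACTA2, ACTC1 and ACTA1 and of mouse Acta2 run the same way in all 5 lines. So do those of bovine ACTG2 and of mouse Actb and Actg1, which were not called. The whole range over lines exceeds the difference between media, while single lines can lie close together.

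Bovine ACTA2, the smooth muscle alpha actin, stood at 475, 3098, 16853, 2060.4 and 10040.4 normalised reads in the IWRR wells of lines 1, 2, 4, 8 and 11, against 273, 1756, 9709, 1327 and 4058 in the IWR wells of the same lines. Line 4 was the highest and line 1 the lowest in both media, and the ranges of the media overlap, but within every line the IWRR well was higher. The log2 change was 0.87 ± 0.09 (SE, n = 5 lines; limma adjusted p = 0.00194). Within lines it ran between 0.63 in line 8 and 1.31 in line 11.

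Bovine ACTC1, the cardiac alpha actin, had 637, 3642, 4341, 2137 and 4244 normalised reads in IWRR wells of lines 1, 2, 4, 8 and 11, and 481, 2281, 2899, 1153 and 1745 in IWR wells. Line 1 was again far below the others in both media. The log2 change was 0.77 ± 0.11 (SE, n = 5 lines; limma adjusted p = 0.0124), smallest in line 1 (0.41) and largest in line 11 (1.28).

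Bovine ACTA1, the skeletal alpha actin, had 351, 1673, 761, 1764 and 2355 normalised reads in IWRR wells of lines 1, 2, 4, 8 and 11, and 247, 1239.8, 399.8, 1259 and 1262 in IWR wells. Here line 4 was next to lowest in both media, unlike its place at the top for ACTA2 and ACTC1. The log2 change was 0.65 ± 0.09 (SE, n = 5 lines; limma adjusted p = 0.0131). This call ended without line 1 (adjusted p = 0.0531) and without line 11 (0.0864); the change was 0.58 to 0.70 when each line was dropped in turn.

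Bovine ACTG2, the smooth muscle gamma actin, was not called. It had 295, 699.7, 2147, 1047 and 509 normalised reads in IWRR wells of lines 1, 2, 4, 8 and 11, and 229.8, 658, 1902, 734 and 382 in IWR wells. The IWRR well was higher in 5 of 5 lines, which was also true of 6.20% of all tested bovine genes. The log2 change was 0.31 ± 0.08 (SE; limma adjusted p = 0.155), with a 95% interval of 0.12 to 0.49.

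The bovine cytoplasmic actins moved both ways. ACTB, the beta actin, had 144579, 240552, 200440.1, 117154 and 170940.2 normalised reads in IWRR wells of lines 1, 2, 4, 8 and 11, and 152103, 185900.0, 189456, 106476 and 176492 in IWR wells. It was higher in IWRR wells in 3 lines and lower in lines 1 and 11. Its log2 change was 0.09 ± 0.09 (SE; limma adjusted p = 0.857), with a 95% interval of -0.11 to 0.30.

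ACTG1, the gamma actin, had 220862, 307438, 300708, 209269 and 286536 normalised reads in IWRR wells of lines 1, 2, 4, 8 and 11, and 231799, 266952, 291407, 203138 and 293609.6 in IWR wells. As for ACTB, lines 1 and 11 were lower in IWRR wells and line 2 gave the largest difference (0.20 on the log2 scale, against 0.37 for ACTB). The log2 change over lines was 0.04 ± 0.09 (SE; limma adjusted p = 0.962), with a 95% interval of -0.17 to 0.24.

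**Figure D2:**
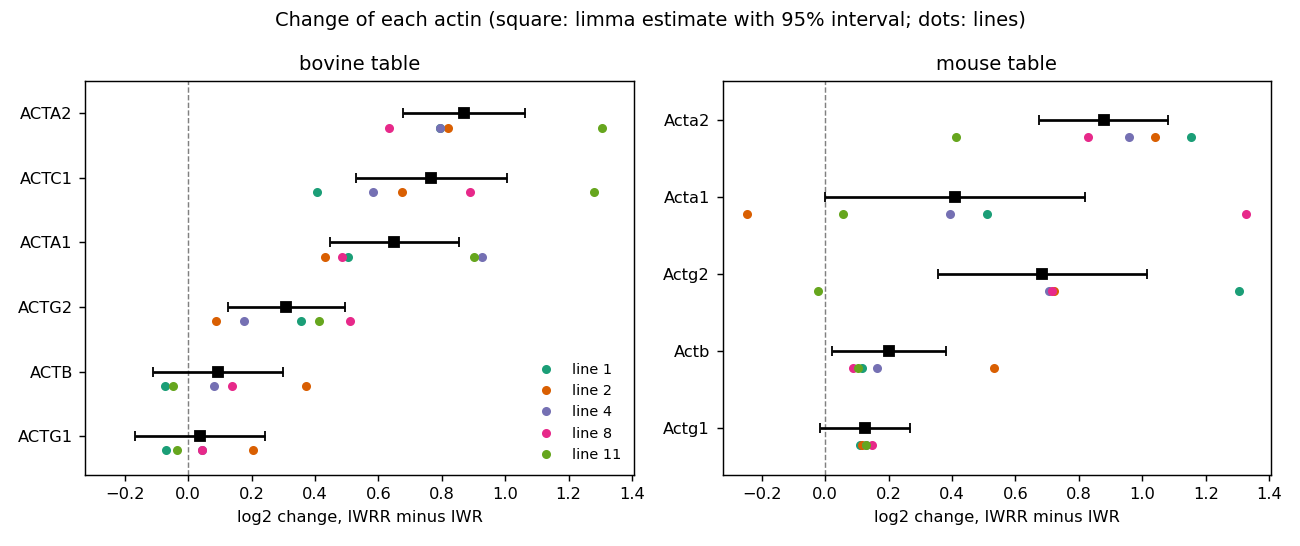
Log2 change of each tested actin, IWRR minus IWR, on the log2(normalised reads + 1) scale, with the limma estimate and its 95% interval as a black square and bar and the 5 lines as dots. ACTA2, ACTC1 and ACTA1 of the bovine table and Acta2 and Actg2 of the mouse table have intervals above 0 and adjusted p-values under 0.05; the intervals of bovine ACTG2 and mouse Actb also lie above 0, but they did not pass the adjustment over all genes.

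In the mouse feeder table Acta2 carried the clearest change. It stood at 4556, 14136, 18074, 4357 and 9918 normalised reads in IWRR wells of lines 1, 2, 4, 8 and 11, and at 2047, 6876, 9299, 2453 and 7454 in IWR wells. The IWRR well was higher in each line. The log2 change was 0.88 ± 0.09 (SE, n = 5 lines; limma adjusted p = 0.000577). It was largest on the feeders of line 1 (1.15) and smallest on those of line 11 (0.41), the line with the largest bovine change.

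Mouse Actg2 had 202, 662, 772, 143 and 266 normalised reads in IWRR wells of lines 1, 2, 4, 8 and 11, and 81.1, 401, 472, 86.6 and 270.4 in IWR wells. It was higher in IWRR wells in 4 lines, and in line 11 the media were nearly equal (-0.02 on the log2 scale). The log2 change was 0.69 ± 0.15 (SE, n = 5 lines; limma adjusted p = 0.0252). The call ended without line 1 (adjusted p = 0.106) and without line 4 (0.108), with changes of 0.53 to 0.86 when each line was dropped in turn.

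Mouse Acta1 had 109.5, 192, 180.2, 110.1 and 406 normalised reads in IWRR wells of lines 1, 2, 4, 8 and 11, against 76.6, 228, 137, 43.3 and 390.2 in IWR wells. Line 2 was lower in the IWRR well, and line 8, from 91 and 42 reads in the IWRR and IWR wells, gave the largest difference (1.33). It was not called (log2 change 0.41 ± 0.19 SE; limma adjusted p = 0.31), and without line 8 the change was 0.18.

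Mouse Actb had 24549, 47065, 36095, 27832 and 44039.9 normalised reads in IWRR wells of lines 1, 2, 4, 8 and 11, and 22659.7, 32545, 32218, 26184 and 40965 in IWR wells. Mouse Actg1 had 27164, 34994, 34815, 23622 and 36071 in IWRR wells, and 25169, 32268, 31843, 21345 and 33009 in IWR wells. Both were higher in IWRR wells in 5 of 5 lines, as were 7.83% of all tested mouse genes, and neither was called. The log2 changes were 0.20 ± 0.08 for Actb (SE; limma adjusted p = 0.241) and 0.13 ± 0.07 for Actg1 (adjusted p = 0.385). The lines were close together for Actg1, between 0.11 and 0.15, whereas line 2 stood at 0.53 for Actb and the other lines at 0.09 to 0.16.

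Mouse Actc1 was at or near 0 in every well. It had 0, 3, 14, 3 and 1 recovered reads in IWRR wells of lines 1, 2, 4, 8 and 11, and 2, 3, 2, 1 and 0 in IWR wells. A count of 0 allows up to 3 reads, which is 3.69 normalised reads in the IWRR well of line 1 and 2.15 in the IWR well of line 11 (counting error only). No fold change is given for it.

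Set against the cytoplasmic actins of the same well, the muscle actins took a larger share of actin reads without IWR-1. In the bovine table the 4 muscle genes held 0.479%, 1.64%, 4.59%, 2.10% and 3.61% of the reads of all 6 actins in IWRR wells of lines 1, 2, 4, 8 and 11, and 0.320%, 1.29%, 3.01%, 1.42% and 1.56% in IWR wells. The share was higher in the IWRR well of every line, by 0.159 to 2.05 percentage points, or 1.26-fold to 2.32-fold. In the mouse table the share was 8.60%, 15.4%, 21.2%, 8.23% and 11.7% in IWRR wells, and 4.41%, 10.4%, 13.4%, 5.16% and 9.89% in IWR wells, higher by 1.79 to 7.77 points in the same lines. The mouse share was mostly that of Acta2, with 3702 of 3955 muscle actin reads in the IWRR well of line 1 and 30096 of 31695 in that of line 4. It therefore largely repeats the change of Acta2. Bovine ACTA2 held 14602 of 20882 muscle actin reads in the IWRR well of line 4, but 482 of 1784 in that of line 1. These are shares of reads, not of transcripts, and as a score over the members they were given no p.

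**Figure D3:**
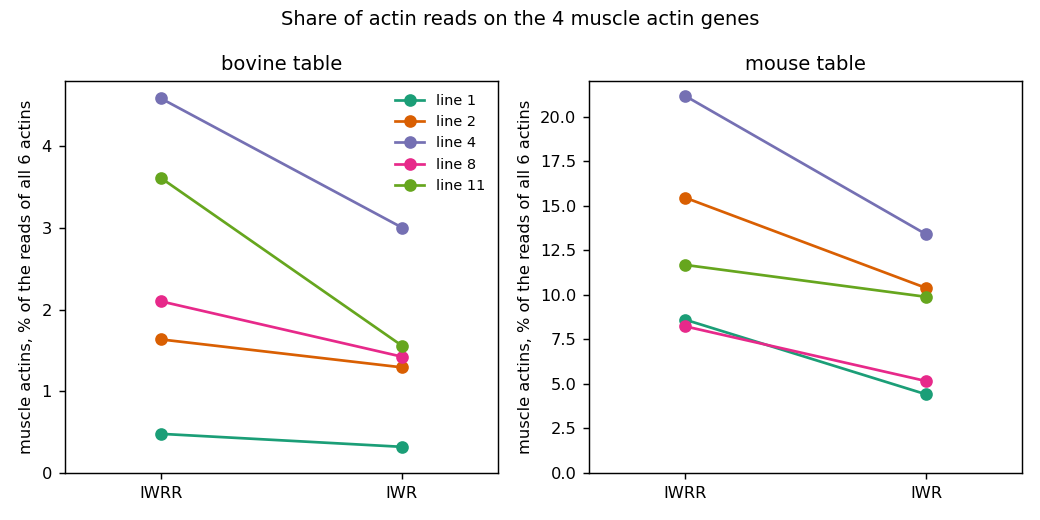
Reads on ACTA1, ACTA2, ACTC1 and ACTG2 as a percentage of the reads on all 6 actins, for each well of the bovine table (left) and the mouse table (right); each line joins the IWRR and the IWR well of 1 stem cell line. The IWRR well is the higher one in all 5 lines of both tables, with line 4 highest throughout and line 1 lowest in the bovine table.

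Gene by gene, the change of bovine ACTA1, ACTA2 and ACTC1 exceeded that of both cytoplasmic actins in 5 of 5 lines, and that of ACTG2 in 4 of 5. The smallest gap was for ACTA1 in line 2, at 0.06 on the log2 scale. Among mouse genes this held in 5 of 5 lines for Acta2, 4 of 5 for Actg2 and 3 of 5 for Acta1. The same count was not made over all tested genes. In lines 1 and 11 both bovine cytoplasmic actins were lower in the IWRR well, so any bovine gene that was higher there exceeded both.

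The range over stem cell lines was wider than the difference between media for each tested actin. In IWRR wells the line with the most bovine ACTA2 had 35.5 times the normalised reads of the line with the fewest, and the ratio was 35.5 in IWR wells as well. For ACTA1, ACTC1 and ACTG2 these ratios were 5.11 to 8.27 over both media, and for ACTB and ACTG1 1.45 to 2.05. The line accounted for 93.9% of the sum of squares of log2 values of ACTA2 and the medium for 5.72%, and for ACTC1 the shares were 84.6% and 13.3%. Mouse Acta2 had the largest share for the medium among the tested actins, 20.4%, with 77.9% for the line. With 1 well per line and medium, the order of neighbouring lines has no spread of its own.

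The place of a line differed between actins. For bovine ACTA2 the order was line 4, 11, 2, 8 and 1, high to low, in both media. Line 4 was also the highest for ACTG2, where line 11 was next to lowest. For ACTA1 lines 11, 8 and 2 led in both media. Line 1 was the lowest for all 4 bovine muscle actins, but not for ACTB and ACTG1, where line 8 was the lowest.

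Bovine fibroblast markers (12 genes, among them COL1A1, COL3A1 and VIM) were summed and set beside ACTA2 across lines. Their summed normalised reads were 61917, 118667, 289292, 72954 and 141604 in IWRR wells of lines 1, 2, 4, 8 and 11, and 60508, 92357, 276235, 72983 and 139829 in IWR wells. VIM weighed heavily in the sum, with a mean of 69977 in IWRR wells and 68951 in IWR wells. COL3A1 ran from 13.8 to 29627 over the IWRR wells. The order of the lines by this sum, not marker by marker, was that of ACTA2 in both media. The mouse share of all recovered reads ranked the lines in this order too. It was 21.2%, 23.2%, 41.4%, 21.5% and 26.6% in IWRR wells of lines 1, 2, 4, 8 and 11. In IWR wells it was 23.4%, 27.4%, 42.3%, 25.7% and 33.3%. None of the 12 fibroblast markers was called between media, where 0.951% of all tested bovine genes were. PDGFRB (log2 change 0.56 ± 0.12 SE, limma adjusted p = 0.0613) and COL1A1 (0.36 ± 0.08, 0.0711) came nearest, both higher in 5 of 5 lines. A positive log2 change was seen in 9 of the 12 (48.4% of all tested genes), and the median was 0.12. COL1A2, DCN and S100A4 had a negative one. The part of the 12 markers, or of reads from the feeders, in the difference of ACTA2 between lines was not tested. The change of ACTA2 between media was 0.89 without line 4 (limma adjusted p = 0.00733).

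The 7 pluripotency markers of the bovine cells, among them POU5F1, SOX2 and NANOG, summed to 91862 to 182067 normalised reads in IWRR wells and 95014 to 183973 in IWR wells. Of these 7, 1 was called: NANOG rose to 1970.4 ± 454 normalised reads in IWRR wells, against 1550.3 ± 263 in IWR wells (SD, n = 5 each; log2 change 0.33 ± 0.06 SE, limma adjusted p = 0.0411; higher in 5 of 5 lines, not called without line 4). DNMT3B (log2 change -0.27 ± 0.07 SE, limma adjusted p = 0.107) and TDGF1 (-0.71 ± 0.23, adjusted p = 0.254) were lower in 5 of 5 lines and not called. The part of these markers in the changes of the actins was not tested. Over all tested bovine genes 0.951% were called.

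Markers of differentiated muscle were uneven. Of the cardiac markers TNNT2, MYL2 and NPPA had at most 6, 2 and 2 reads in any well, while TNNI3 averaged 981 and 1038 normalised reads in IWRR and IWR wells and RYR2 1067 and 1140. Of the skeletal markers MYOD1 and MYOG had at most 4 and 2 reads, while TNNT1 averaged 657 and 702 normalised reads in IWRR and IWR wells. Of the smooth muscle markers MYLK averaged 2902 and 2401, SMTN 1628 and 1663, and KCNMB1 had at most 6 reads. The 9 cardiac markers summed to 1772 to 3054 normalised reads in IWRR wells and 1524 to 2938 in IWR wells, the 10 skeletal markers to 352 to 1897 and 369 to 1784. Of 5 tested cardiac markers 1 rose, the atrial myosin light chain MYL7 (log2 change 1.06 ± 0.20 SE, limma adjusted p = 0.0411; not called without line 4), and of 4 tested skeletal markers 0 were called. The 8 smooth muscle markers summed to 4504 to 9012 in IWRR wells and 3870.2 to 7690 in IWR wells, and 1 of 7 tested rose, LMOD1. MYH11 (log2 change 0.49 ± 0.15 SE, limma adjusted p = 0.213), SYNPO2 (0.53 ± 0.18, 0.291) and MYH6 (0.50 ± 0.18, 0.335) were positive and not called. Median log2 changes were 0.23, 0.32 and -0.07 over the 7 tested smooth muscle, 5 cardiac and 4 skeletal markers. Of these, 4, 3 and 1 had a positive log2 change. Over all tested bovine genes 0.886% were called higher. Myocardin (MYOCD), a muscle co-activator of SRF, averaged 105 ± 78.9 normalised reads in IWRR wells and 183 ± 180.0 in IWR wells (SD, n = 5 each) and was not called (log2 change -0.61 ± 0.19 SE; limma adjusted p = 0.226). It was lower in the IWRR well of 5 of 5 lines, as were 4.92% of all tested bovine genes.

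The transcripts of SRF and its co-activators themselves were not called, 0 of 4, where 0.951% of all tested bovine genes were. Their log2 changes were 0.13 ± 0.06 for SRF, -0.05 ± 0.06 for MRTFA and -0.10 ± 0.09 for MRTFB (SE; limma adjusted p = 0.538, 0.895 and 0.832). Their protein activity was not measured.

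Several partners of actin in contractile fibres rose in the bovine table. Of 25 tested contractile and stress fibre partners 5 rose, 0 fell and 20 were not called. Over all tested bovine genes 0.886% were called higher and 0.0648% lower. TAGLN, which encodes the actin-bundling protein transgelin, averaged 17981 ± 13168 normalised reads in IWRR wells and 9735 ± 7133 in IWR wells (SD, n = 5 each; log2 change 0.90 ± 0.08 SE). TPM1, a tropomyosin that winds along the filament, averaged 28028 ± 7188 and 18414 ± 4618 in IWRR and IWR wells (0.60 ± 0.05). CNN1 (calponin, 0.59 ± 0.09), MYL9 (regulatory myosin light chain, 0.51 ± 0.07) and CALD1 (caldesmon, 0.48 ± 0.07) also rose, with limma adjusted p-values of 0.00108 to 0.0207 over the 5. In all, 24 of the 25 had a positive log2 change with a median of 0.20, where 48.4% of all tested genes were positive with a median near 0 (-0.00463). Without line 1 or without line 11 the count that rose was 2, and without line 4 it was 4. With DESeq2 it was 8, and without the filter 3.

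The machinery that turns actin over was mostly not called, where over all tested bovine genes 0.886% were called higher. Of 18 genes for monomer binding and filament turnover 1 rose, LIMK2, a kinase that inactivates cofilin (log2 change 0.35 ± 0.06 SE; limma adjusted p = 0.0322). Without line 4 none of the 18 was called. CAP1, which recycles monomers, was next by p (0.12 ± 0.06; adjusted p = 0.574), and the median of the list was 0.06. Of 27 genes for nucleation and capping 1 rose, the nucleator LMOD1, with 575 ± 136 normalised reads in IWRR wells and 361 ± 73.0 in IWR wells (SD, n = 5 each; 0.66 ± 0.09 SE, limma adjusted p = 0.012). The formin FMNL2 was at 0.21 ± 0.06 (adjusted p = 0.144), and the median was 0.03.

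No gene that folds or matures actin was called, 0 of 17 tested. As 0.951% of all tested bovine genes were called, this count does not set these genes apart. The list had 1 further member without a matching symbol. The chaperonin subunits CCT5 (0.14 ± 0.06 SE; limma adjusted p = 0.46) and CCT3 (0.10 ± 0.06; adjusted p = 0.71) had the smallest p-values, and the median log2 change was 0.03.

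**Figure D4:**
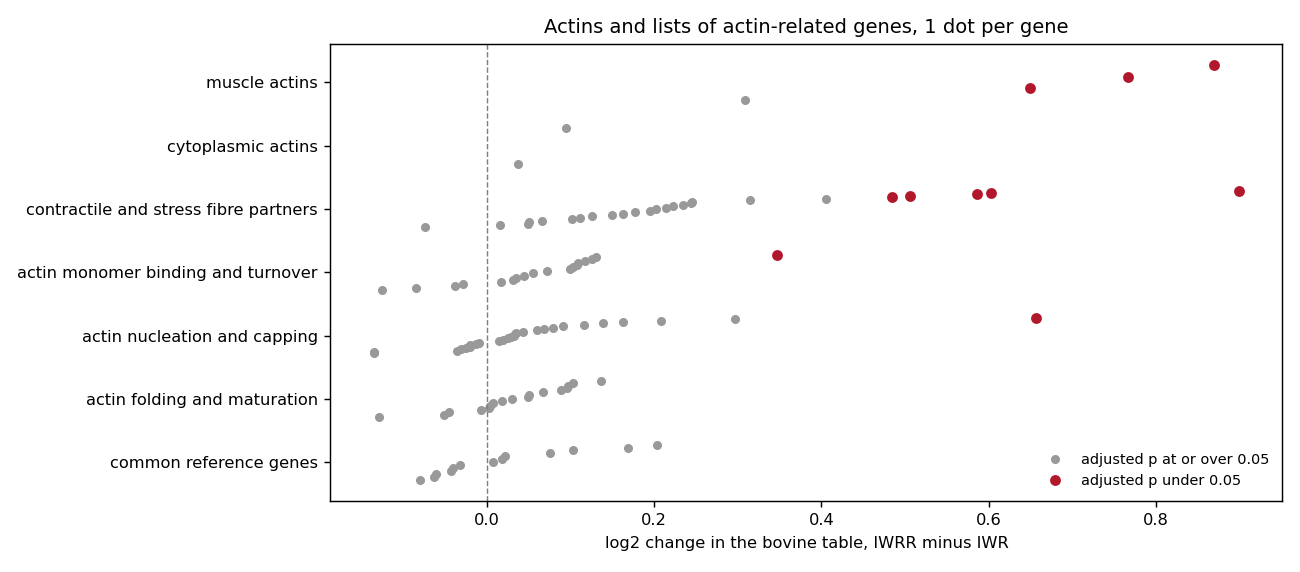
Log2 change in the bovine table, IWRR minus IWR, for the 6 actins and the tested genes of 5 lists, 1 dot per gene, ordered within each list; red dots have a limma adjusted p under 0.05. The genes with an adjusted p under 0.05 are 3 muscle actins, 5 contractile partners, LIMK2 and LMOD1, and none is below 0.

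ACTB is often used to normalise expression measurements, so its spread was set beside that of 13 common reference genes and ACTG1. The standard deviation of log2 values over the 10 wells was 0.36 for ACTB, second of these 15 after PGK1 (0.49), and 0.23 for ACTG1; TBP had the smallest (0.13). Against 0.951% of all tested bovine genes, none of the 13 was called between media. GUSB (0.17 ± 0.05 SE; limma adjusted p = 0.241) and HPRT1 (0.20 ± 0.07; adjusted p = 0.336) had the smallest p-values among them.

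The change of each actin was compared between species within lines, over the 5 actins tested in both tables. The mean bovine minus mouse difference in log2 change was -0.01 for ACTA2 (SD 0.51, n = 5 lines), 0.24 for ACTA1 (SD 0.68), -0.38 for ACTG2 (SD 0.53), -0.11 for ACTB (SD 0.10) and -0.09 for ACTG1 (SD 0.11). Exact two-sided sign-flip tests gave p = 1, 0.562, 0.188, 0.125 and 0.188 in that order, or 0.312 to 1 after Benjamini-Hochberg adjustment over the 5. With 5 pairs an exact two-sided test cannot reach the threshold of 0.05. The near-equal mean for ACTA2 covered lines that differed: the bovine change was the smaller one in lines 1, 2, 4 and 8, by up to 0.36, and the larger one in line 11, by 0.89.

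The reads of each bovine and mouse gene pair were also divided by species. Of the reads on ACTA2 and Acta2 together, 88.5%, 79.6%, 67.3%, 61.3% and 49.5% were counted on the mouse gene in IWRR wells of lines 1, 2, 4, 8 and 11, and 87.1%, 80.7%, 65.4%, 62.4% and 71.3% in IWR wells. ACTA2 was thus the actin with the largest mouse share in each well, above the mouse share of the whole library. Over all wells it was 11.8% to 25.7% for ACTB and 7.80% to 18.2% for ACTG1, in each well below the share of the whole library. For ACTC1 the mouse gene held 0% to 0.371% in IWRR wells and 0% to 0.419% in IWR wells.

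**Figure D5:**
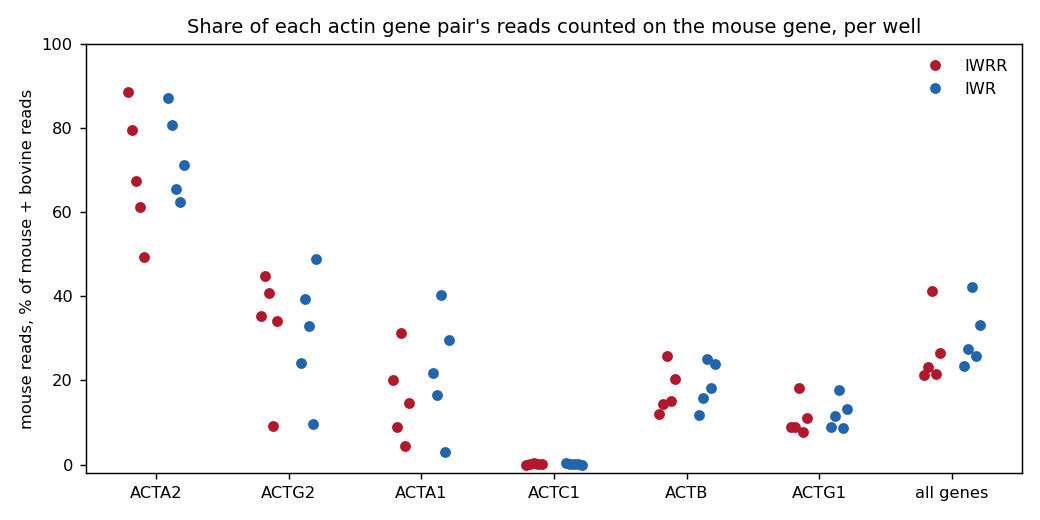
Percentage of the reads of each actin gene pair that were counted on the mouse gene, with 1 dot per well, IWRR to the left of IWR and lines 1, 2, 4, 8 and 11 in that order within a group; the last column is the same percentage over all genes. ACTA2 lies at 49.5% to 88.5%, ACTC1 at or under 0.419%.

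Bovine ACTC1 had 475 to 4362 recovered reads per well, while mouse Actc1 had 0 to 14, so that at most 0.421 mouse reads were counted for every 100 bovine reads of this gene. For ACTA2 the ratio ran from 97.9 to 768 mouse reads per 100 bovine reads. Whether part of the bovine counts of ACTA2, ACTC1 or the other actins came from feeder RNA, of the same or another actin gene, was not tested. When the fit also held the share of mouse reads per well, no bovine gene was called. The change was then 0.59 for ACTA2, 0.27 for ACTC1 and 0.65 for ACTA1. In the mouse table Acta2 was at 1.25 and Actg2 at 1.26, neither called. The share was lower in the IWRR well of each line, so this fit cannot fully tell it apart from the medium.

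The genes whose profiles over the 10 libraries lay closest to that of an actin were named by the root mean square difference of centred log2 values. For bovine ACTA2 they were the integrin gene ITGB5 (0.46), MYL7 (0.48), AHNAK (0.51), PHLDA1 (0.52) and CCDC80 (0.53). Of these, ITGB5 (log2 change 0.67 ± 0.13 SE; limma adjusted p = 0.0431) and MYL7 rose, and the others were not called. For ACTB they were SAFB2, SCAF1, SMARCA4, TSC22D2 and FAM193A, at 0.06 to 0.09, and none was called. For mouse Acta2 the fourth nearest gene was Actg2 (0.31), and the nearest were IDs 98932 (0.19) and 17880 (0.27), which the files do not pair with names and which both rose (0.96 ± 0.09 and 0.99 ± 0.16). These distances describe 10 wells of 5 lines and carry no test. The profiles span both media, so a like change between media is part of what makes a gene near. Calls among the nearest genes are therefore no separate support for the change of an actin. Of all tested genes 0.886% were called higher in the bovine table and 2.14% in the mouse table.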

How the data were processed

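RNA of 10 wells, 5 bovine embryonic stem cell lines in 2 media on mouse feeders, was selected for polyA and sequenced. Per the labels' protocols the reads were mapped separately to ARS-UCD1.3 and GRCm39. Tools listed in the submitters' processing notes are featureCounts 1.5.0-p3, StringTie 1.3.3b, HISAT2 2.0.5 and fastp, without their roles. The sources used here do not give the treatment of reads that fit both genomes. The deposited values are a normalised signal per gene, counts divided by a factor per library, and the authors' scaling method is not stated. Whole reads were recovered from 100% of the positive values (tolerance 0.01). The mouse table has 2 columns with no sample label, which were not used.

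Values were tested as log2(value + 1) with limma 3.58.1 (R 4.3.3, with an intensity trend), the line as a block, on genes at 10 or more in at least 5 libraries (at least 4 where a line was left out). P-values were adjusted by Benjamini-Hochberg over all tested genes and called under 0.05. The fit was also run on simulated data, and that run is not used as support here. The block follows the series' design, in which each line was split over both media. Wells of 1 line deviated together from their group means (r 0.617 to 0.883 over bovine genes and 0.488 to 0.725 over mouse genes). Nothing says that the wells of a line were repeated. The p-values rest on how the within-line change between media varied over the 5 lines, with limma's moderation over genes. Differences between single wells are part of that spread. Alternatives were edgeR 4.0.16 and DESeq2 1.42.0 on recovered reads, other pseudocounts, no filter, TMM scaling, a mouse share covariate and each line left out. Fits of edgeR and DESeq2 without the block and the count of contractile partners under other settings were added after seeing the data. Changes were compared between species over the 5 actins tested in both tables, since mouse Actc1 was under the filter.

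Bovine symbols came from the RefSeq table of ARS-UCD2.0, which matched 24660 of 27590 IDs. As its build differs from that of the files, no coordinates are given. Of 31349 mouse IDs 0 were matched, so mouse genes other than the actins have no name here. No sequences are shown. The named genes are the actins, up to 6 called genes of each actin list (or the smallest p-values, where fewer than 2 were called) and the 5 nearest profiles of ACTA2 and ACTB. The members and lists were chosen with earlier results of these data known. Intervals on counts of 0 cover counting error only.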

Additional observations from a re-analysis of the deposited data

Results flagged for a closer look

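In each of 3 groups of 5 values 1 well or line stood far from the others by Dixon's ratio (critical value 0.71 for 5 values). As 35 such groups were examined and chance sets apart about 1 in 20, some are expected by chance. The within-line log2 change of bovine ACTA2 had a ratio of 0.725, with line 11 at 1.31 and the other lines at 0.63 to 0.82. The normalised reads of mouse Acta1 in IWRR wells had a ratio of 0.721, with line 11 at 406 and the others at 109.5 to 192. The within-line log2 change of mouse Actb had a ratio of 0.829, with line 2 at 0.53 and the others at 0.09 to 0.16. Line 2 also gave the largest change of bovine ACTB, 0.37.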

How the results depend on the processing

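Pseudocounts of 0.5 and 10, TMM scaling and edgeR with the replicate block kept the direction and the call of each actin. Without the replicate block 0 of 176 bovine and 0 of 665 mouse calls were made in limma (105 and 584 genes at an unadjusted p under 0.05) and 0 in edgeR (112 and 583); DESeq2 without the block called 2 and 15. In these fits 0 actins of either species were called, against 3 bovine and 2 mouse actins with the block. Their log2 changes without the block in limma, edgeR and DESeq2 were 0.65, 0.64 and 0.64 for ACTA1, 0.87, 0.93 and 0.92 for ACTA2, 0.77, 0.81 and 0.81 for ACTC1, 0.88, 0.85 and 0.86 for mouse Acta2, and 0.69, 0.63 and 0.64 for mouse Actg2. With the mouse share as a covariate beside the block, 0 bovine, 0 mouse and 0 actin genes were called (456 bovine and 687 mouse genes at an unadjusted p under 0.05); the changes were 0.65 for ACTA1, 0.59 for ACTA2, 0.27 for ACTC1, 1.25 for Acta2 (adjusted p = 0.0973) and 1.26 for Actg2 (0.403). As the mouse share was lower in the IWRR well of each line, the covariate overlaps with the medium, and this fit cannot fully tell them apart. The cause was not tested. Without the filter 53 bovine and 329 mouse genes and 1 mouse actin were called, and Actg2, at 0.69, had an adjusted p of 0.0856; more genes enter that adjustment. DESeq2 with the block called 422 bovine and 904 mouse genes.

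Leaving out 1 line at a time gave 31 to 185 bovine calls (36 without line 1, 102 without line 4, 31 without line 11) and 270 to 935 mouse calls (319 without line 1, 283 without line 4, 270 without line 11), with 2 to 3 bovine and 1 to 2 mouse actins. The changes were 0.58 to 0.70 for ACTA1, 0.76 to 0.93 for ACTA2 (adjusted p = 0.00296 to 0.0193), 0.64 to 0.86 for ACTC1 (0.0169 to 0.0365), 0.81 to 1.00 for Acta2 (0.000344 to 0.00622) and 0.53 to 0.86 for Actg2. ACTG1 ranged from -0.00417, without line 2, to 0.064. The bovine minus mouse difference of ACTA2 ranged from -0.23 to 0.079 and was positive without line 1 (0.079), 2 (0.045), 4 (0.030) or 8 (0.038). Contractile partners that rose numbered 2 to 6, and 0 in the fits without the block and with the covariate. The muscle share per gene length was not run, as no transcript lengths were given. Few reads limit mouse Actc1 and Acta1. They also limit mouse Actg2 in lines 1 and 8, with 164 and 118 reads in the IWRR wells and 72 and 84 in the IWR wells.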
